A study of Mus musculus with 6 samples.

Results

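The genes described are 10 genes of the AP-1 group and of the immediate early response. They are the Fos family (Fos, Fosb, Fosl1, Fosl2), the Jun family (Jun, Junb, Jund), Atf3, Egr1 and Ier3. They were taken by symbol from a table of raw RNA-seq counts that lists 25239 genes, and all 10 were found. The RNA came from follicle-enriched thyroid organoids grown from 1 engineered mouse embryonic stem cell line, a G4 RosaLuc derivative from an isolated clone. In this line doxycycline (1 µg/ml for 5 days) switched on Nkx2-1 and Pax8, which direct cells to a thyroid fate, and every group received it. The line also carries Braf V637E, the mouse form of the BRAF mutation most common in papillary thyroid cancer, fused to an ERT2 domain that 4-hydroxytamoxifen activates.

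Each of the 3 groups held 2 libraries collected at day 31. Organoids of the cAMP group were kept in 8-Br-cAMP, and the study's methods describe ethanol as the vehicle of its controls. Organoids of the 4OHT group received 8-Br-cAMP with 1 µM 4-hydroxytamoxifen for 5 days. Organoids of the PD+LY group received 8-Br-cAMP and 1 µM 4-hydroxytamoxifen together with the MEK inhibitor PD0325901 (250 nM) and the PI3K inhibitor LY204002 (5 µM) for 3 days. The methods also describe a period of 4-hydroxytamoxifen alone before inhibitors, so the total days of 4-hydroxytamoxifen may differ between 4OHT and PD+LY. The bovine thyroglobulin promoter (bTg) drives the Braf fusion, so cells that do not use this promoter carry it silent, and enrichment by filtering leaves cells of other kinds in the organoids. Braf activation and 4-hydroxytamoxifen itself cannot be told apart in these groups, nor can the 2 inhibitors. The methods say that experiments were done in duplicate and that at least 3 wells were pooled per condition. Neither they nor the labels say that the libraries of a group came from separate differentiations, so p-values measure the spread between these samples, which may be technical.

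The libraries held 16060341 and 20533878 counts in cAMP, 14898409 and 18246077 in 4OHT, and 19508401 and 20637959 in PD+LY. Levels are given as CPM of the TMM-normalised library total, in which 1 count was worth 0.0486 to 0.0667 CPM. Levels of the 10 genes are compared with each other only per kb of exons. A gene passed the test when its adjusted p in edgeR's quasi-likelihood test was under 0.05 over the 15256 genes with enough counts, and "at 2-fold" adds a change of at least 2-fold. All 10 genes were tested, but Fosl1 and Fosb reached the count filter only with their 4OHT libraries, in which they were high. With 2 libraries against 2, regrouping them in every possible way gives no p under 0.3333 for a gene taken alone. In bulk RNA, fewer cells of a type and less RNA per cell cannot be told apart, which holds for every level below.

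AP-1 is a dimer of a Fos protein with a Jun protein, or of Jun proteins, that binds short palindromic DNA sites. Growth factor signals that pass through RAF, MEK and ERK switch on some of its genes within minutes and without new protein synthesis. They do so through ternary complex factors with SRF, and cAMP acts on some of its genes through CREB. In thyroid follicular cells thyrotropin signals through cAMP, while mutant BRAF signals through MEK and ERK. The first comparison asks what changed when the Braf fusion was activated, the second what changed when MEK and PI3K were inhibited while the fusion stayed active, and the third how far inhibited organoids stood from controls.

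In 4OHT against cAMP 2 of the 10 genes passed the test, Junb and Ier3, both higher. Of all tested genes 4.04% passed as higher and 4.35% as lower. At 2-fold, Junb alone passed, beside 1.17% of all genes higher and 1.51% lower. At an unadjusted p under 0.05 there were 6 higher, beside 11.7% of all tested genes, and in DESeq2 3 passed as higher, beside 4.35%. No member passed as lower in edgeR. At an unadjusted p under 0.05 and in DESeq2 0 of 10 did so, beside 12.2% and 4.41% of all tested genes. The number of members that passed was 0 when cAMP library 1, 4OHT library 1 or 4OHT library 2 was left out, and without cAMP library 2 there were 2 at 2-fold. The libraries of the groups did not overlap for 7 of the 10 genes, all higher in 4OHT, beside 58.5% of all tested genes (29.1% higher, 29.4% lower). Fosb and Fosl1 are counted among the 7, although they reached the filter only with their 4OHT libraries, which favoured a higher level there. Fosl1 is also among the 6 at an unadjusted p under 0.05.

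In PD+LY against 4OHT 6 of the 10 genes passed, Fos, Fosb, Fosl1, Junb, Egr1 and Ier3, all lower, beside 12.1% of all genes lower and 10.7% higher. The same 6 passed at 2-fold, beside 4.9% of all genes lower and 2.35% higher. No member passed as higher in the main edgeR fit. At an unadjusted p under 0.05 and in DESeq2 0 did so, beside 18.0% and 9.64% of all tested genes. With all libraries kept, Jund passed as higher in edgeR without a filter (adjusted p = 0.00902). With a replicate block Jun (0.0383) and Jund (0.0105) did. Fosb and Fosl1 are counted here although they entered the test through 4OHT, the group in which they were high, and with at least 10 counts required in every library 4 genes passed, the others. The libraries did not overlap for 9 of the 10 genes, all but Fosl2, with Jun and Jund higher in PD+LY and the rest lower. Of all tested genes 62.3% did not overlap (31.1% higher, 31.2% lower). Without 4OHT library 2 the number that passed was 4.

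In PD+LY against cAMP 3 genes passed as lower (Fos, Egr1 and Ier3), beside 13.7% of all genes, and 2 as higher (Fosl2 and Jund), beside 12.1%. At 2-fold the same 3 were lower, beside 6.24% of all genes, and Jund was higher, beside 3%. The median log2 fold change of the 10 genes was 0.51 in 4OHT against cAMP, where that of all tested genes was -0.0021. It was -1.20 in PD+LY against 4OHT (all tested genes 0.0077). For PD+LY against cAMP it was -0.68, or -0.36 with Fosl1 at the bound its counts of 0 allow (all tested genes 0.0049). The comparisons share libraries in pairs, so they are not independent of each other.

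**Figure D1:**
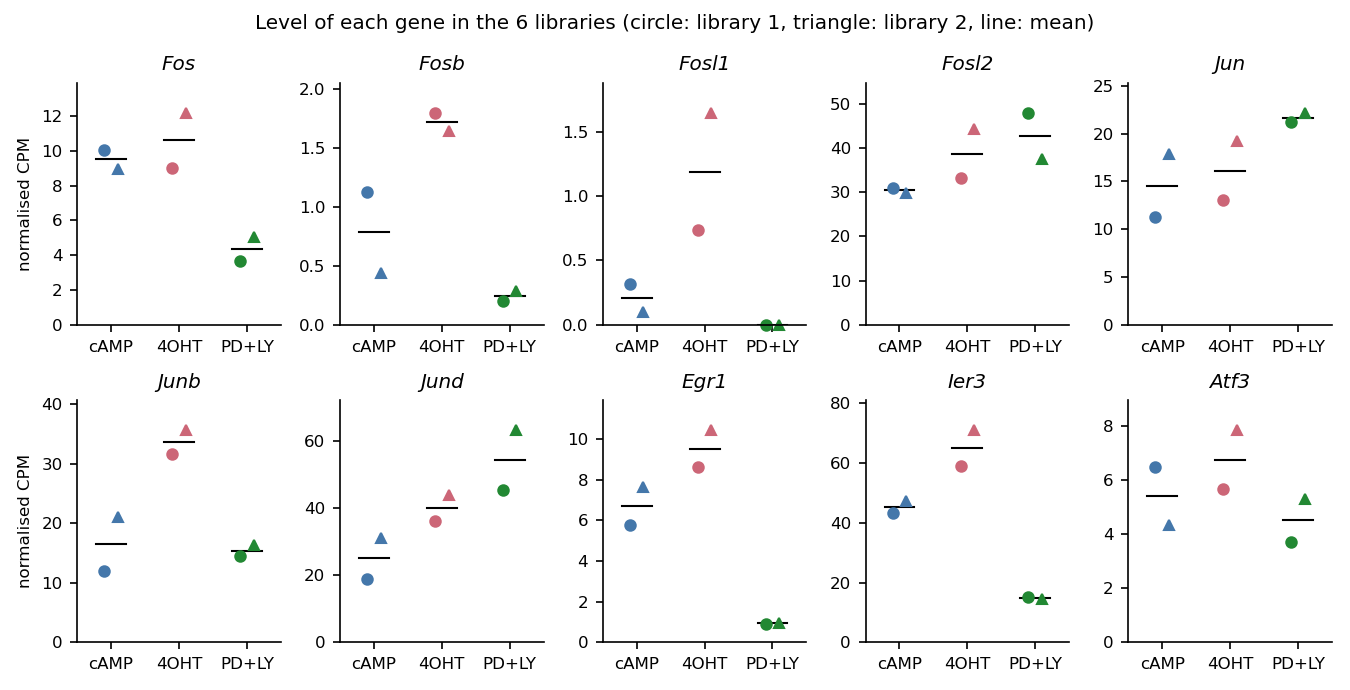
Level of each of the 10 genes in normalised CPM (vertical axes from 0, scaled per gene) in the cAMP, 4OHT and PD+LY groups. Circles are library 1, triangles library 2 and lines the mean of the 2. Egr1 and Ier3 were lowest in both PD+LY libraries, Junb was highest in both 4OHT libraries, and Jund was highest in both PD+LY libraries.

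Fos, the founding member of its family, lies on chromosome 12 of GRCm38 (85473890 to 85477273, plus strand). Its level was 10.1 and 8.97 CPM in the cAMP libraries, 9.01 and 12.2 in the 4OHT libraries, and 3.67 and 5.06 in the PD+LY libraries. Both PD+LY libraries were lower than every other library, and those of cAMP and 4OHT overlapped. The group means were 9.52 ± 0.775, 10.6 ± 2.24 and 4.36 ± 0.983 CPM in the same order (SD, n = 2). Fos fell by 1.28 on the log2 scale in PD+LY against 4OHT (SE 0.23, edgeR adjusted p = 0.00248) and fell by 1.12 against cAMP (SE 0.23, edgeR adjusted p = 0.00443). For 4OHT against cAMP the log2 fold change was 0.16 with a 95% interval from -0.32 to 0.64, and without 4OHT library 2 it turned to -0.075.

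Fosb, a family member known for its longer-lived splice form in neurons, lies on chromosome 7 (19302696 to 19310051, minus strand). It had 18 and 9 counts in cAMP, 27 and 30 in 4OHT, and 4 and 6 in PD+LY, which is 1.13 and 0.439, 1.80 and 1.65, and 0.204 and 0.292 CPM. The 3 groups did not overlap, with 4OHT highest and PD+LY lowest. Fosb fell by 2.76 in PD+LY against 4OHT (SE 0.62, edgeR adjusted p = 0.00813). The call rested on both 4OHT libraries, since the adjusted p was 0.0526 without library 1 and 0.0542 without library 2, in a range of 0.000386 (no filter on counts) to 0.0542 over all alternatives. Fosb entered the test through its 4OHT libraries and 1 of cAMP, so a rise to 4OHT and a fall from it were favoured by the filter. The value was 1.17 in 4OHT against cAMP (SE 0.54, edgeR adjusted p = 0.211), and in PD+LY against cAMP it was -1.59 (SE 0.67, edgeR adjusted p = 0.104). Without cAMP library 1 these were 1.95 and -0.80. Without cAMP library 2 the former was 0.61, and the lowest value of the latter over the alternatives was -2.15.

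Fosl1 encodes Fra-1, known as a target of sustained ERK activity, and lies on chromosome 19 (5447547 to 5455946, plus strand). It had 5 and 2 counts in cAMP, 11 and 30 in 4OHT, and 0 and 0 in PD+LY. The levels were 0.314 and 0.0975 CPM in cAMP and 0.734 and 1.65 CPM in 4OHT. The 4OHT libraries lay above all others, and differed from each other more than for most genes. The 4OHT mean was 1.19 CPM, and a floor of 3 counts per library averaged 0.149 CPM in PD+LY. By these means Fosl1 was at least 7.97-fold lower in PD+LY than in 4OHT, a bound that is lower with 4OHT library 1 alone. The edgeR test of its counts, which did not use the floor, gave an adjusted p of 0.00363. Without 4OHT library 2 that adjusted p was 0.0592, in a range of 5.34e-05 (no filter on counts) to 0.0592 over the alternatives. Fosl1 entered the test through its 4OHT libraries alone, so a rise to 4OHT and a fall from it were favoured by the filter. For 4OHT against cAMP the log2 fold change was 2.59 (SE 0.79, edgeR adjusted p = 0.0708), which passed in 2 of 11 alternatives. It ran from 1.87 to 3.54 over them, with only 5 and 2 counts in cAMP. No fold is given for PD+LY against cAMP, where both groups were near the floor.

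Of the exonic bases of Fosl1, 57.2% lie opposite exons of Ccdc85b on the minus strand. The counting did not use strand, so reads from the shared bases cannot be told apart and the level of Fosl1 is uncertain. Ccdc85b had 7.23 and 8.77 CPM in cAMP, 10.5 and 9.98 in 4OHT, and 6.52 and 11.1 in PD+LY. Its 4OHT libraries were higher than those of cAMP, as for Fosl1 (edgeR adjusted p = 0.425), and PD+LY overlapped with both.

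Fosl2 encodes Fra-2 and lies on chromosome 5 (32135801 to 32157842, plus strand). Its level was 30.9 and 29.8 CPM in cAMP, 33.2 and 44.2 in 4OHT, and 47.9 and 37.6 in PD+LY. Both cAMP libraries were lower than the other 4, while 4OHT and PD+LY overlapped. Against cAMP the PD+LY value was 0.49 higher on the log2 scale (SE 0.16, edgeR adjusted p = 0.0403). This call was lost without cAMP library 1 (adjusted p = 0.100), cAMP library 2 (0.144) or PD+LY library 1 (0.179), in a range of 0.00316 to 0.179 over the alternatives. The log2 fold change was 0.35 in 4OHT against cAMP (SE 0.16, edgeR adjusted p = 0.207), in a range of 0.13 to 0.54 over the alternatives. It was 0.14 in PD+LY against 4OHT, where it turned to -0.045 without library 1 of 4OHT and -0.047 without library 1 of PD+LY.

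Set on the scale of CPM per kb of exons, Fos and Fosl2 made up nearly the whole Fos family in every library. The summed level of the 4 genes was 7.81 and 7.01 CPM per kb in cAMP, 7.91 and 10.8 in 4OHT, and 6.54 and 6.08 in PD+LY. Fos took 54.8 and 54.4% of that sum in cAMP, 48.4 and 47.9% in 4OHT, and 23.8 and 35.4% in PD+LY. The share of Fosl2 was 40.9 and 43.9%, 43.4 and 42.2%, and 75.7 and 63.9%, so Fos was the larger part in both cAMP and both 4OHT libraries and Fosl2 in both PD+LY libraries. Fosl1 reached 7.48% in 4OHT library 2 and Fosb 3.65% in 4OHT library 1. The order of the group means of the sum (4OHT, cAMP, PD+LY) was the same with TMM, RLE or library totals.

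Jun, the founding member of its family, lies on chromosome 4 (95049034 to 95052222, minus strand), in a single exon. Its level was 11.3 and 17.9 CPM in cAMP, 13.1 and 19.2 in 4OHT, and 21.2 and 22.2 in PD+LY. Both PD+LY libraries were higher than the other 4, and cAMP and 4OHT overlapped. No comparison passed the test. The log2 fold change was 0.42 in PD+LY against 4OHT (SE 0.22, edgeR adjusted p = 0.192, of 13 alternatives only the replicate block passed with 0.0383, highest 0.698) and 0.56 in PD+LY against cAMP (SE 0.22, edgeR adjusted p = 0.0826). Without cAMP library 2 the latter was 0.95 (adjusted p = 0.0160, in a range of 0.00544 to 0.452 over 13 alternatives, of which 3 passed). The value in 4OHT against cAMP was 0.14 with a 95% interval from -0.35 to 0.64, and it turned to -0.14 without cAMP library 1 and -0.16 without 4OHT library 2.

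Junb, which can replace Jun in the dimer and often activates less strongly, lies on chromosome 8 (84974484 to 84978718, minus strand). Its level was 12.0 and 21.1 CPM in cAMP, 31.6 and 35.6 in 4OHT, and 14.5 and 16.3 in PD+LY. The 4OHT libraries were higher than the other 4, and the PD+LY libraries lay between those of cAMP. The group means were 16.6 ± 6.43, 33.6 ± 2.81 and 15.4 ± 1.29 CPM (SD, n = 2). Junb rose by 1.01 in 4OHT against cAMP (SE 0.21, edgeR adjusted p = 0.0140) and fell by 1.13 in PD+LY against 4OHT (SE 0.21, edgeR adjusted p = 0.00315). The rise was 0.67 without cAMP library 1 (adjusted p = 0.0738) and 1.49 without cAMP library 2 (adjusted p = 0.00105), and the call was also lost without 4OHT library 1 (0.0764) or library 2 (0.121), in a range of 4.86e-08 to 0.121 over the alternatives. PD+LY differed from cAMP by -0.12 (95% interval -0.59 to 0.36), which turned to 0.37 without cAMP library 2.

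Jund, the family member that most cells express without a stimulus, lies on chromosome 8 (70698949 to 70700616, plus strand). Its level was 19.1 and 31.3 CPM in cAMP, 36.2 and 44.0 in 4OHT, and 45.5 and 63.3 in PD+LY. The 3 groups did not overlap, with cAMP lowest and PD+LY highest. Jund was higher by 1.10 in PD+LY against cAMP (SE 0.22, edgeR adjusted p = 0.00309), with 0.80 without cAMP library 1 and 1.52 without cAMP library 2. The log2 fold change was 0.67 in 4OHT against cAMP (SE 0.22, edgeR adjusted p = 0.0833) and 0.44 in PD+LY against 4OHT (SE 0.21, edgeR adjusted p = 0.155). The latter ran from 0.18 to 0.65 over 13 alternatives, of which 3 passed, and was highest without PD+LY library 1. With all libraries kept, it passed in edgeR without a filter (adjusted p = 0.00902) and with a replicate block (0.0105). The former passed without cAMP library 2 (1.08, adjusted p = 0.0131), PD+LY library 1 (0.0297) or PD+LY library 2 (0.0328), and with all libraries in DESeq2 (0.0262), without a filter (0.000126), with only the groups compared (0.0353) and with a replicate block (0.000973), in a range of 0.000126 to 0.453. Exons of Gm11175 on the other strand cover 52.6% of Jund. Counts of Gm11175 were not analysed here, unlike those of Ccdc85b, and its part in the level of Jund was not tested. For Jun 7.28% of the exonic bases lie opposite Junos, and for Junb 7.52% lie opposite Prdx2. Prdx2 had 261 and 285 CPM in cAMP, 268 and 277 in 4OHT, and 285 and 306 in PD+LY, and its part in the level of Junb was not tested.

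Per kb of exons, the summed Jun family level was 20.2 and 33.5 CPM per kb in cAMP, 39.6 and 47.9 in 4OHT, and 40.2 and 52.0 in PD+LY, in each library above that of the Fos family. Both cAMP libraries were lower than the other 4, and 4OHT and PD+LY overlapped. With these lengths Jund was the largest part in all 6 libraries, with 56.6 and 55.9% in cAMP, 54.9 and 55.1% in 4OHT, and 67.9 and 73.0% in PD+LY. The share of Junb was 25.9 and 27.3% in cAMP, 34.7 and 32.3% in 4OHT, and 15.6 and 13.6% in PD+LY. The summed Jun family stood at 2.58 and 4.78 times the Fos family in cAMP, 5.00 and 4.42 in 4OHT, and 6.15 and 8.55 in PD+LY. These shares and ratios are descriptions of the libraries and were not tested. They depend on the length taken for Jund, which is 1668 bases in GENCODE but spans 2878 in RefSeq. With RefSeq spans for the Jun family Junb was the larger part in cAMP library 2 (41.0% against 38.9% for Jund) and in both 4OHT libraries (50.7% against 37.2%, and 47.6% against 37.6%). Jund remained the larger part in cAMP library 1 (39.7% against 39.1%) and in both PD+LY libraries (52.2 and 58.2%).

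**Figure D2:**
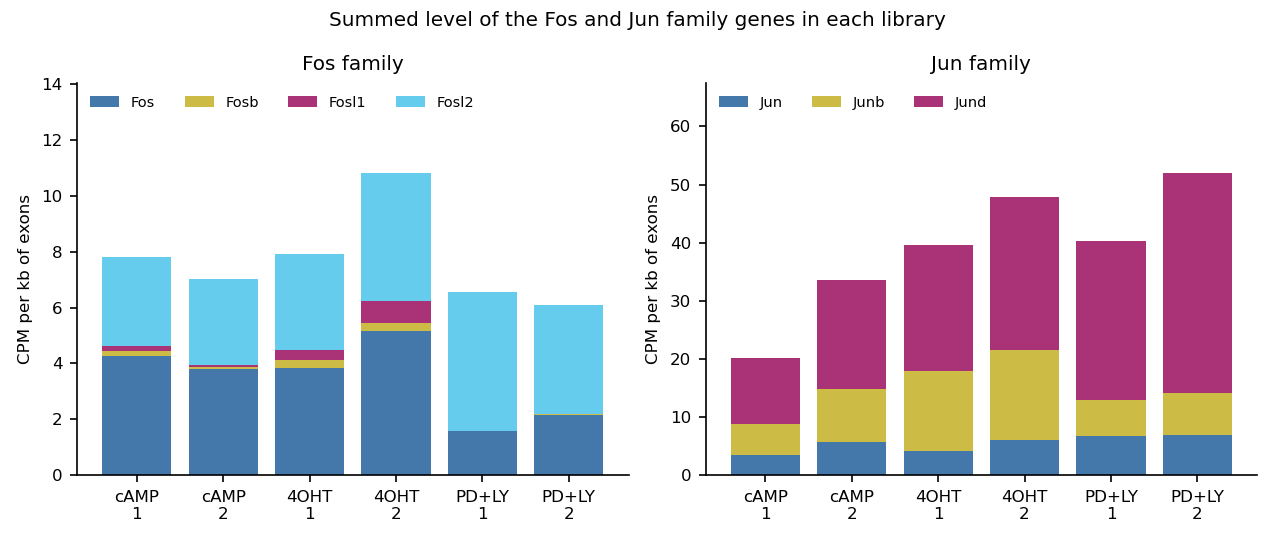
Stacked bars of the Fos family (left) and Jun family (right) in each library, in normalised CPM per kb of exons, with 1 colour per gene. Fosl2 was the largest part of the Fos family in the PD+LY libraries (75.7 and 63.9%). With the GENCODE lengths drawn here Jund was the largest part of the Jun family in all 6, which changes in 3 libraries with RefSeq spans.

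Atf3, a stress-induced factor that pairs with Jun proteins, lies on chromosome 1 (191170296 to 191218039, minus strand). Its level was 6.48 and 4.34 CPM in cAMP, 5.67 and 7.84 in 4OHT, and 3.72 and 5.30 in PD+LY. The cAMP libraries overlapped with both other groups, and the PD+LY libraries were lower than those of 4OHT. None of its changes passed, with -0.59 in PD+LY against 4OHT (SE 0.28, edgeR adjusted p = 0.153) and 0.34 in 4OHT against cAMP (SE 0.28, edgeR adjusted p = 0.509). Over the alternatives the former ran from -0.87 to -0.32 and the latter from 0.072 to 0.64. Against cAMP the PD+LY value was -0.25 with a 95% interval from -0.87 to 0.37, and it turned to 0.057 without cAMP library 1.

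Egr1, a zinc finger factor of the same early response that is bound and restrained by the NAB proteins, lies on chromosome 18 (34859823 to 34864984, plus strand). It had 92 and 157 counts in cAMP, 129 and 190 in 4OHT, and 18 and 20 in PD+LY. The levels were 5.79 and 7.65, 8.61 and 10.4, and 0.917 and 0.973 CPM, so the groups did not overlap and the PD+LY libraries stood far below the others. Egr1 fell by 3.32 in PD+LY against 4OHT (SE 0.28, edgeR adjusted p = 1.77e-05), a 10.02-fold lower level, and fell by 2.83 against cAMP (SE 0.28, edgeR adjusted p = 3.54e-05). By p-value it was number 54 of the 15256 tested genes in the first of these comparisons and 181 in the second. The value in 4OHT against cAMP was 0.50 (SE 0.23, edgeR adjusted p = 0.206).

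Ier3, an early response gene known to affect ERK signalling and cell survival, lies on chromosome 17 (35821684 to 35822923, plus strand). Its level was 43.2 and 47.2 CPM in cAMP, 59.0 and 71.0 in 4OHT, and 15.3 and 14.4 in PD+LY. The groups did not overlap, with 4OHT highest and PD+LY lowest. The means were 45.2 ± 2.84, 65.0 ± 8.49 and 14.9 ± 0.592 CPM (SD, n = 2). Ier3 fell by 2.13 in PD+LY against 4OHT (SE 0.14, edgeR adjusted p = 2.55e-06), where it was number 16 of the tested genes by p-value, and it fell by 1.61 against cAMP (SE 0.14, edgeR adjusted p = 1.03e-05). It rose by 0.52 in 4OHT against cAMP (SE 0.13, edgeR adjusted p = 0.0257), a 1.44-fold higher level. That call was lost without cAMP library 1 (adjusted p = 0.191), cAMP library 2 (0.0724), 4OHT library 1 (0.0805) or 4OHT library 2 (0.304), in a range of 0.00284 to 0.304 over the alternatives.

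**Figure D3:**
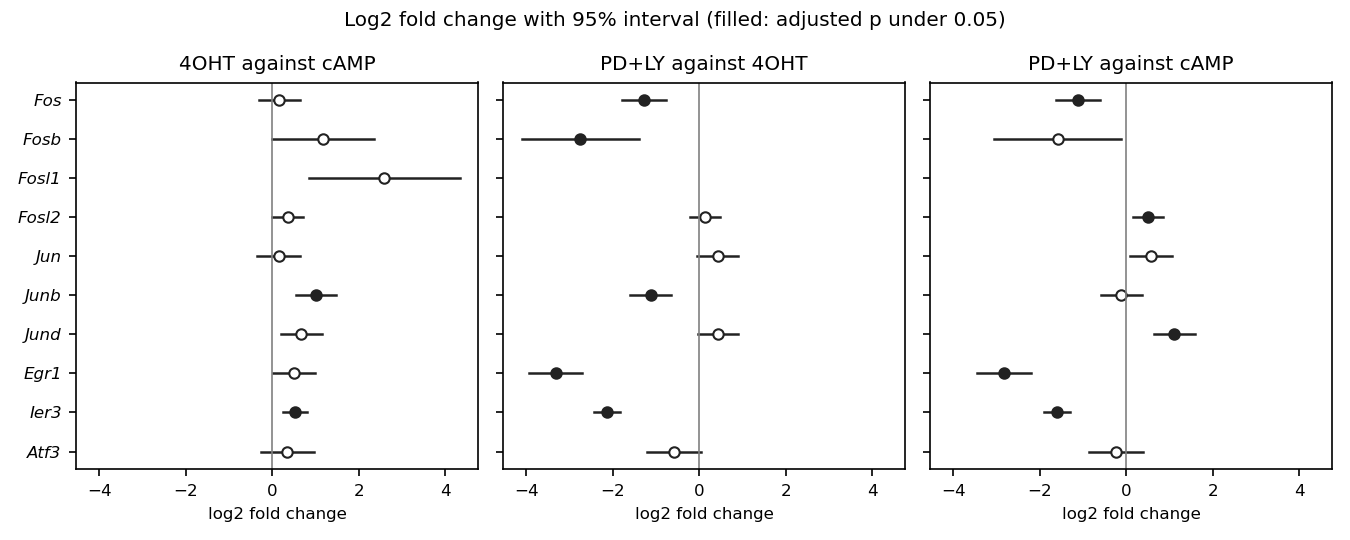
Log2 fold change (horizontal axis) of each gene in the 3 comparisons, with bars for the 95% interval of edgeR and filled points for an adjusted p under 0.05. Fosl1 is left out of both comparisons with PD+LY, where it had 0 counts in the PD+LY libraries. In PD+LY against 4OHT the values run from -3.32 for Egr1 to 0.44 for Jund.

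By mean level per kb of exons, the order in the cAMP group was Ier3 (39.98 CPM per kb), Jund (15.1), Junb (7.20), Jun (4.57), Fos (4.05), Fosl2 (3.14), Atf3 (2.51), Egr1 (1.498), Fosb (0.126) and Fosl1 (0.101). Junb and Jun, Jun and Fos, Fosl2 and Atf3, and Fosb and Fosl1 differed by less than the SD of one of them. With RefSeq spans Jund (8.75) stood next to Junb (8.999) in cAMP. In PD+LY Jund led (32.6 CPM per kb, or 18.9 with the RefSeq span), before Ier3 (13.1), and Fos stood at 1.85 CPM per kb, below Fosl2 (4.42) and within the SD of Atf3 (2.09). Among tested genes with a known length Ier3 stood at the 92.1, 94.8 and 72.9 percentile of level per kb (cAMP, 4OHT, PD+LY). Egr1 stood at 27.8, 33.3 and 7.91.

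Several members differed between the cAMP libraries more than most genes, in both directions. Jun, Junb and Jund were 0.66, 0.81 and 0.71 higher on the log2 scale in cAMP library 2 than in library 1. Among all tested genes the median size of that difference was 0.16, and the 3 genes stood at the 91.5, 94.3 and 92.8 percentile. Fosb, Fosl1 and Atf3 went the other way, with -1.18, -1.04 and -0.57 (97.8, 96.7 and 89.1 percentile). Fosb had only 18 and 9 counts in the cAMP libraries and Fosl1 5 and 2, where counting error is large. The percentiles are among all tested genes, not those of like count. Over the 10 members the median size was 0.61, 0.35 and 0.26 (cAMP, 4OHT, PD+LY), beside 0.16, 0.13 and 0.22 over all tested genes.

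Fos, Junb and Jun are shown with the 250 bases before their start in RefSeq (GRCm38.p6). Windows were at hand for 8 of the 10 members, and the entries of Fosl1 and Egr1 are named only. Bases farther upstream were not searched, so a site there would be missed. Searched on both strands were TGACTCA (AP-1 site, in 4.463% of 32851 windows of this length), TGACGTCA (CRE, 1.546%), its shorter form TGACGT (6.469%, which holds every CRE), TGACATCA (2.928%), GCGGGGGCG (EGR1 site, 2.572%), CCGGAAG (ETS core, 6.907%) and the CArG box bound by SRF (1.467%). Capitals mark a match, which is TGACGT in Fos at bases -66 to -61 and TGACATCA in Jun at -45 to -38 before the start, while none of these letters were found in the Junb window. Outside these 3, GCGGGGGCG was found in Fosb and Fosl2, TGACGT on the reverse strand in Atf3, and no match in Jund and Ier3. The window of Jund lies before its RefSeq start, 1210 bases upstream of the GENCODE start given above. The RefSeq starts of Fosl2 and Atf3 lie 671 and 34706 bases downstream of the GENCODE ones. In Fosb 73 bases of the window, the match among them, lie inside the gene as RefSeq bounds it.
Fos, chr12:85473640-85473889, plus strand: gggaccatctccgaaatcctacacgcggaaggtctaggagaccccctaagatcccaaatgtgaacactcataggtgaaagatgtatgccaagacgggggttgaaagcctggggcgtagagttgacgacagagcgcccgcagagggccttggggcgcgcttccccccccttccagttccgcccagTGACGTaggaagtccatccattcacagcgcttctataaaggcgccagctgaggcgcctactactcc
Junb, chr8:84978749-84978998, minus strand: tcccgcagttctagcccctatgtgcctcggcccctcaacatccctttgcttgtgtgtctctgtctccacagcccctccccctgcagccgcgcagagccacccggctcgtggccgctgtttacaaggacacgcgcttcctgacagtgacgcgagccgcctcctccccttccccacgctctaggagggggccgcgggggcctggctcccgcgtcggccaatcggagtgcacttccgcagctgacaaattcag
Jun, chr4:95052223-95052472, minus strand: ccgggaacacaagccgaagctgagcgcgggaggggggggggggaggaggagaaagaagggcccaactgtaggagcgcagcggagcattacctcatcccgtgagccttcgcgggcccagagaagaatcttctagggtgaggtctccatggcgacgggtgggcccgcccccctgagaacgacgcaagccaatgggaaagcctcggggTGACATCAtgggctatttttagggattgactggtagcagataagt

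Other bZIP genes of the AP-1 group (Batf, Maf and Atf genes and Jdp2) numbered 14, of which 11 were tested. The counts of this and the following lists stand beside the shares of all tested genes, which were 4.04% higher and 4.35% lower for 4OHT against cAMP, then 10.7% and 12.1% for PD+LY against 4OHT, then 12.1% and 13.7% for PD+LY against cAMP. Of the list 1 rose in 4OHT against cAMP (median -0.016), a call lost without cAMP library 1 or either 4OHT library. Of the 11, 5 fell in PD+LY against 4OHT and the list's median log2 fold change was 0.13, opposite in sign to the genes that passed. Atf4, the main factor of the integrated stress response, had 308 and 321 CPM in 4OHT and 148 and 143 CPM in PD+LY, and fell by 1.11 (SE 0.090, edgeR adjusted p = 1.36e-05). Mafa had 3.94 and 5.21 CPM in 4OHT and 1.17 and 2.53 CPM in PD+LY, and fell by 1.303 (edgeR adjusted p = 0.0217), a call lost without 4OHT library 1 (0.0502), 4OHT library 2 (0.181) or PD+LY library 1 (0.0950), in a range of 0.000391 to 0.181. Against cAMP 2 fell in PD+LY, with a median of -0.13. With 4OHT library 2 left out there were 3 that fell in PD+LY against 4OHT, and with PD+LY library 2 left out there were 2 that rose there and 4 that fell against cAMP. With either PD+LY library left out 2 rose in 4OHT against cAMP.

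Of 34 other immediate early genes 32 were tested, Srf, Egr2, Egr3 and Gadd45b among them, which are also counted in lists below. Egr3 entered the test through 4OHT, where it was high, so its fall from 4OHT was favoured by the filter. For 4OHT against cAMP 4 rose while 1 fell (median log2 fold change 0.085), in PD+LY against 4OHT 4 rose and 12 fell (median -0.32), and in PD+LY against cAMP 5 rose and 12 fell (median -0.27). Plk3, a kinase of the stress response, had 33.4 and 32.9 CPM in 4OHT and 10.6 and 17.0 CPM in PD+LY, and fell by 1.26 (SE 0.19, edgeR adjusted p = 0.000747). Rhob, a small GTPase, went the other way, with 11.1 and 12.5 CPM in 4OHT and 45.8 and 42.1 CPM in PD+LY, a rise of 1.90 (SE 0.16, edgeR adjusted p = 1.77e-05). Single libraries moved the counts. Without 4OHT library 2 there were 5 that fell in PD+LY against 4OHT, and without cAMP library 2 there were 5 that fell in PD+LY against cAMP. With cAMP library 1, 4OHT library 1 or 4OHT library 2 left out, 1 rose and 0 fell in 4OHT against cAMP, and with either PD+LY library left out 2 fell.

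The 12 upstream factors (ternary complex factors, SRF, its cofactors, CREB and its coactivators) were all tested. None passed in 4OHT against cAMP in edgeR. At an unadjusted p under 0.05 there were 2, beside 11.7% of all tested genes higher and 12.2% lower. In DESeq2 1 passed as lower, beside 4.41% of all tested genes. The PD+LY libraries had 2 higher and 1 lower against 4OHT (median 0.12), and in PD+LY against cAMP 2 rose and 1 fell (median 0.14), none of them at 2-fold. Of 16 kinases and turnover genes of AP-1 proteins, all tested, 2 fell in 4OHT against cAMP (median -0.058), 1 rose in PD+LY against 4OHT (median 0.075) and 1 fell in PD+LY against cAMP (median -0.060). Counts this small moved with single libraries. Of the upstream factors, 2 fell in 4OHT against cAMP without either PD+LY library, 1 rose in PD+LY against 4OHT without 4OHT library 2, and 0 rose in PD+LY against cAMP without PD+LY library 2 or either cAMP library. Of the kinases and turnover genes, 0 fell in 4OHT against cAMP without 4OHT library 1, and 0 rose in PD+LY against 4OHT without either 4OHT library.

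Known AP-1 target genes, such as matrix metalloproteinases and the urokinase receptor, numbered 20, of which 18 were tested. For 4OHT against cAMP 9 rose while 1 fell, with a median of 0.65. All 18 tested genes fell in PD+LY against 4OHT, 11 of them at 2-fold beside 4.9% of all genes, with a median of -1.14. The list, like the others, was chosen with earlier results of these data known, so its counts are descriptions of these genes only. In DESeq2 17 of them passed as lower, beside 11.1% of all tested genes. Against cAMP 9 fell and 1 rose in PD+LY (median -0.56). With 1 library left out the number that fell in PD+LY against 4OHT was 12 to 17, and the number that rose in 4OHT against cAMP was 3 to 12, with 4 without cAMP library 1, 4 without cAMP library 2, 3 without 4OHT library 1 and 4 without 4OHT library 2. The 1 gene that fell did not pass without cAMP library 1 or either 4OHT library.

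The largest falls of this list were those of Mmp genes. Mmp10 had 7.94 and 9.65 CPM in 4OHT and 0.509 and 0.389 CPM in PD+LY, and fell by 4.28 (SE 0.32, edgeR adjusted p = 7.64e-06). Mmp3 had 20.9 and 20.9 CPM in 4OHT and 1.99 and 0.681 CPM in PD+LY, and fell by 3.98 (SE 0.33, edgeR adjusted p = 1.77e-05). Mmp9 fell by 2.25 (SE 0.22, edgeR adjusted p = 4.53e-05), and the cyclin gene Ccnd1 fell by 1.66 (SE 0.14, edgeR adjusted p = 1.58e-05). In 4OHT against cAMP the cytokine Lif rose from 11.5 and 12.6 to 23.6 and 27.5 CPM (1.09, SE 0.17, edgeR adjusted p = 0.00270), and Spp1, encoding osteopontin, from 607 and 517 to 1151 and 1161 CPM (1.04, SE 0.099, edgeR adjusted p = 0.000116). Plaur, the urokinase receptor, rose by 1.09 (edgeR adjusted p = 0.00706), a call lost without cAMP library 1 (0.0593) or 4OHT library 1 (0.0837), in a range of 4.77e-06 to 0.0837.

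Of 14 partners and targets of Egr1, all tested, 5 rose while 1 fell in 4OHT against cAMP (median 0.29), 7 fell in PD+LY against 4OHT (median -0.63) and 2 fell in PD+LY against cAMP (median -0.18). Nab2, a corepressor that Egr1 induces, had 19.8 and 22.3 CPM in 4OHT and 9.22 and 10.5 CPM in PD+LY, and fell by 1.10 (SE 0.16, edgeR adjusted p = 0.000641). Pdgfb, a growth factor gene, fell by 1.05 (edgeR adjusted p = 0.00625), and Ptgs2, the inducible prostaglandin synthase that also stands among the AP-1 targets, fell by 1.01 (edgeR adjusted p = 0.00506). Of the 7 that fell, Ptgs2 and Tgfb1 are also AP-1 targets, and Egr3 and Gadd45b are also among the other immediate early genes, so 4 are counted in 2 lists. Egr3 had 1.34 CPM on average in 4OHT, 0.369 in cAMP and 0 in PD+LY, against a count filter of 0.530 CPM. It entered the test through 4OHT, so its fall from 4OHT was favoured by the filter. The calls of Pdgfb and Ptgs2 were lost without 4OHT library 2, with adjusted p = 0.0997 for Pdgfb and 0.0788 for Ptgs2, which were also the highest of their alternatives (lowest 4.21e-05 and 5.18e-09). The list had 2 genes that fell in PD+LY against 4OHT without 4OHT library 2, and with PD+LY library 1 left out it had 6 that fell in PD+LY against cAMP, while 1 fell without PD+LY library 2 or either cAMP library. For 4OHT against cAMP 0 rose or fell without cAMP library 1 or either 4OHT library, and 2 rose without cAMP library 2.

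Markers of several cell types moved with the groups. The summed level of 10 mesenchymal genes was 1347 and 1482 CPM in cAMP, 2440 and 2584 in 4OHT, and 4949 and 4218 in PD+LY, with all 10 at or above 3 counts in every library and Col1a1 the largest part of the CPM sum (869 CPM on average). Single genes of the list went both ways, and in PD+LY against 4OHT 4 rose and 3 fell (median log2 fold change 0.22). The summed level of 11 thyroid genes, 10 of them at or above 3 counts throughout, was 1659 and 1111 CPM in cAMP, 574 and 767 in 4OHT, and 1999 and 999 in PD+LY, most of it Tg. Of the 10 tested thyroid genes 3 fell in 4OHT against cAMP (median -0.69). In PD+LY against 4OHT 6 rose, all at 2-fold (median 1.24), and against cAMP 3 rose in PD+LY (median 0.15). These counts moved with single libraries. For 9 epithelial genes, which thyroid cells express too, the summed level was 1089 and 1172, 779 and 877, and 751 and 791 CPM, with Cdh1 the largest part of the CPM sum. That sum hides opposite moves, since in PD+LY against 4OHT 7 of the 9 fell (median -0.90) while Cdh1 rose. The part of these shifts in the levels of the 10 genes was not tested.

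The summed level of 10 pluripotency genes, with Dppa5a the largest part of the CPM sum, was 4094 and 4003 CPM in cAMP, 4429 and 4262 in 4OHT, and 4290 and 4579 in PD+LY, and all 10 were at or above 3 counts in every library. The level sum hides opposite moves here too, since against cAMP 5 rose and 3 fell in PD+LY. Only 3 rose there without PD+LY library 2 or any 1 library of cAMP or 4OHT. Their Klf4 is also counted among the immediate early genes. For 8 endothelial genes, 7 of them at that level throughout, the sums were 183 and 176, 196 and 199, and 172 and 173 CPM. Most of that sum is Pecam1 (151 CPM on average), which rose in 4OHT against cAMP while 3 of the 7 tested genes fell. No gene of the list rose there without any 1 library of cAMP or 4OHT, and 1 fell without 4OHT library 1. Against cAMP 5 of the 7 fell in PD+LY (median -0.99), or 3 without cAMP library 1. Of 8 macrophage genes 4 were at or above 3 counts in every library. Their sums were 70.3 and 70.8, 60.6 and 69.2, and 33.4 and 35.1 CPM, mostly Cd68, while the defining markers Ptprc, Adgre1 and C1qa had 0 counts in all 6 libraries.

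For each member the 3 tested genes with at least 50 counts on average whose pattern over the 6 libraries was nearest were taken from 12216 genes, by the root mean square difference of centred log2 CPM. Nearest to Ier3 were Cacng6 (0.0459), Plk5 (0.127) and Phlda1 (0.138), where Ier3 itself varied by 0.904 around its mean. For Egr1, which varied by 1.41, they were Mgp (0.210), Mymx (0.263) and Zap70 (0.344). For Fos (0.594) they were Zbtb32 (0.0943), Arhgap33 (0.117) and Arhgap45 (0.123). Junb (0.572) was nearest to Pik3ap1 (0.0851), Plaur (0.167) and Adamtsl4 (0.177). Of these, Plaur is among the AP-1 targets above.

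For Fosb (1.03) the nearest were Ccdc88b (0.314), Mmp9 (0.318) and Lcn2 (0.320), and for Fosl1 (1.49) Npy (0.435), Bpifa1 (0.447) and Areg (0.456). Jund (0.534) was nearest to Efhb (0.104), Sobp (0.106) and Iffo1 (0.121), and Jun (0.358) to Lrfn3 (0.0942), Lhx2 (0.103) and Dnajc30 (0.104). For Fosl2 (0.255) they were Slirp (0.0594), Traf1 (0.0812) and 9330182L06Rik (0.0878), and for Atf3 (0.347) 9330151L19Rik (0.121), Rhbdl1 (0.134) and Fam131c (0.137).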

How the data were processed

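The authors trimmed paired-end reads with Trimmomatic, mapped them to mm10 (GRCm38) with HISAT2 and counted them per gene symbol with HTSeq without strand, and the deposited values are raw counts without normalization. The annotation used for counting is not given in the sources used here. The members and the gene lists were chosen with earlier results of these data known.

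Counts were analysed in R 4.3.3 with edgeR 4.0.16. The filter was filterByExpr (minimum count 10, minimum total 15), normalization was TMM, and 1 quasi-likelihood model with 3 groups was fitted to all 6 libraries, with Benjamini-Hochberg adjustment over 15256 genes. The procedure was tested on simulated data. The common biological coefficient of variation was 0.105, and the chi-square between replicates, divided by its degrees of freedom, was 8.26 (cAMP), 4.53 (4OHT) and 17.7 (PD+LY), so no library was a copy of another. The floor of 3 counts covers counting error only.

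Exonic lengths and positions come from GENCODE M21 and promoter sequences from RefSeq. The alternatives were DESeq2 1.42.0, RLE size factors, library totals, other count filters, only the groups compared, a replicate block and leaving out each library. Named are all 10 members, and from each list up to 4 genes with the largest change at 2-fold and a mean of at least 50 counts, for the comparisons of 4OHT with cAMP and of PD+LY with 4OHT. The member pattern was compared on log2 CPM with a prior count of 2.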

Additional observations from a re-analysis of the deposited data

How the results depend on the processing

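With all libraries kept, 190 of the members' log2 fold changes under the alternatives kept direction and side of the threshold, 11 passed where they had not, and none changed sign or lost a call. With 1 library left out, 155 kept both, 13 lost the call, 5 gained it and 7 changed sign, each of the 7 without a call before: Jun in 4OHT against cAMP (-0.14 and -0.16, highest 0.53), Fos there (-0.075, highest 0.36), Fosl2 in PD+LY against 4OHT (-0.045 and -0.047, highest 0.37), and for PD+LY against cAMP Atf3 (0.057, lowest -0.52) and Junb (0.37, lowest -0.46). Counts over the lists, values of named list genes and RefSeq spans for the Jun family were added to the alternatives after the data were seen. A library left alone in its group was assumed to vary like the other groups, and the cause of these shifts was not tested.

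In 4OHT against cAMP the number of members that passed was 4 (2 at 2-fold) with only the groups compared, and 0 to 3 (0 to 2 at 2-fold) with 1 library left out. All genes that passed there numbered 1280, but 2186 without the filter, 2307 with only the groups compared, and 216 to 2314 with 1 library left out (164 to 487 at 2-fold). In PD+LY against 4OHT they were 1198 to 4158 (632 to 1176 at 2-fold) with 1 left out, and in PD+LY against cAMP 2351 to 4287. Fosl1 and Fosb had no value where at least 10 counts were required in every library, nor in PD+LY against cAMP with only those groups compared, and Fosl1 received no adjusted p from DESeq2 in 4OHT against cAMP.

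The labels give the groups the same replicate numbers, but nothing ties library 1 of a group to library 1 of another. The differences between replicates correlated across genes by 0.072 (cAMP and 4OHT), 0.21 (cAMP and PD+LY) and 0.059 (4OHT and PD+LY). With a replicate block 4 members passed in 4OHT against cAMP (2 at 2-fold, all genes 2373), 8 in PD+LY against 4OHT (all genes 4742 in place of 3469), and 6 when PD+LY was set against cAMP (5057 in place of 3925). Levels near 3 counts, as for Fosl1 in cAMP, are limited by depth.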
